A study of Homo sapiens with 8 samples.

Results

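The TRiC chaperonin, also called CCT, is encoded by 8 related genes, TCP1, CCT2, CCT3, CCT4, CCT5, CCT6A, CCT7 and CCT8, which were taken by gene symbol from the deposited tables. All 8 had rows in both tables, among 45341 genes shared by the tables, and all 8 were among the 12696 genes tested. TRiC is a barrel of stacked rings in the cytosol, each ring built from distinct subunits that are products of separate genes. It binds unfolded chains, and ATP hydrolysis closes a built-in lid so that the chain folds inside. Actin and tubulin are its best known clients, and prefoldin hands such chains to it.

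The study treated MDA-MB-231 cells, an established mesenchymal-type breast cancer line without oestrogen receptor, with phosphonium compounds and sequenced poly-A RNA. The first, 1-SO, is named (5-oxo-2-dibenzothienylmethyl)triphenylphosphonium in the labels, and the second, 1-S, is the related compound without the 5-oxo group. In round 1, at passage 8, the conditions were 1-SO with UV-A, 1-SO in the dark, vehicle with UV-A and vehicle in the dark. In round 2, at passage 32 to 34, they were 1-S with UV-A, 1-S in the dark, vehicle with UV-A and vehicle in the dark. Compounds were given at 10 µM for 24 h, the vehicle was 1% DMSO, and the UV-A plate received 30 min under 8 bulbs of 325 to 375 nm. The labels describe a separate dark plate, so plate and light cannot be told apart. Each condition of each round was 1 library, so a compound effect has no replicate of its own, and compound, round and passage cannot be told apart.

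The 8 libraries held 15.8 to 22.6 M counted reads. VIM, CD44, AXL and ZEB1, markers of this line, were expressed, while SPARC, another marker of the list, was near 0 at 0.0569 to 0.158 FPKM. ESR1, PGR and CDH1 were also near 0, and EPCAM, GATA3 and FOXA1 were low. ERBB2, listed beforehand as low or absent in this line, had 9.78 to 29.2 FPKM. The luminal markers KRT8 (47.4 to 222 FPKM) and KRT18 (29.6 to 80.5 FPKM) were expressed. The immune and endothelial markers PTPRC, CD3E, CD68 and CDH5 were near 0. The irradiated 1-SO library stood apart in its mitochondrially encoded reads, which made up 0.93% of its total against 2.40 to 3.12% in the other 7 libraries.

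Stretches from RefSeq promoter windows on GRCh38.p14, 250 bases before to 50 after each annotated start, are shown. They were picked because 1 subunit gene, TCP1, rose with 1-S, as did most of the heat shock chaperone genes described further on. Whether these rises were linked was not tested. Capitals mark a match to a short heat shock element, GAANNTTC or TTCNNGAA, searched on both strands. The first 3 lines are the subunit genes with a match, and the last 2 are heat shock genes described further on.
TCP1: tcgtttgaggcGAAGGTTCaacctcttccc
CCT2: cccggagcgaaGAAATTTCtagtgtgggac
CCT4: ccggcgccgctTTCTGGAAggtt
HSPA1A: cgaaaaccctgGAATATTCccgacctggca
DNAJB1: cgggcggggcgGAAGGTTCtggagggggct

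The TCP1 stretch lies at chr6:159789815-159789844 on the minus strand, 231 bases before the RefSeq start. It falls inside the first bases of MRPL18, which is transcribed away from TCP1 on the opposite strand. The CCT2 stretch is chr12:69585789-69585818 on the plus strand, 89 bases before the second of its 2 annotated starts, and the CCT4 stretch is chr2:61888607-61888629 on the minus strand, 39 bases after a start. The HSPA1A stretch is chr6:31815426-31815455 on the plus strand and the DNAJB1 stretch chr19:14518456-14518485 on the minus strand. The 7 subunit genes with an entry had 9 windows, of which 3 held a match, against 13.5% of all 35116 windows, and a match is a description of the letters only. HSPA1A and DNAJB1 are shown because they hold one, while the windows of BAG3 and HSPH1, which also rose with 1-S, held none. CCT6A was not matched. An E-box, CACGTG, stood in 0 of 9 subunit windows and 7.26% of all windows, and the ETS motif CCGGAAG in 1 of 9, that of CCT2, and 10.3%. A CCAAT box stood in 4 of 9 subunit windows, those of TCP1, CCT2, CCT3 and CCT8, and in 34.6% of windows, and the element TGATGNAAT in 0 of 9 and 0.991%. No match overlapped one of another motif in the subunit genes.

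All 8 subunit mRNAs were abundant. Levels are given in FPKM, which scales reads to gene length and library size. Within each library the subunits stood above 94.1 to 98.8% of the protein-coding genes tested, and together they took 0.267 to 0.35% of all reads. The most abundant subunit was 2.04 to 2.42 times as high as the least abundant in the same library. The gene models were 1.12 to 1.97 times longer in the round 2 table than in the round 1 table. An FPKM value is thus only comparable with others of its round, and the order of the subunits within a library depends on the gene models.

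**Figure D1:**
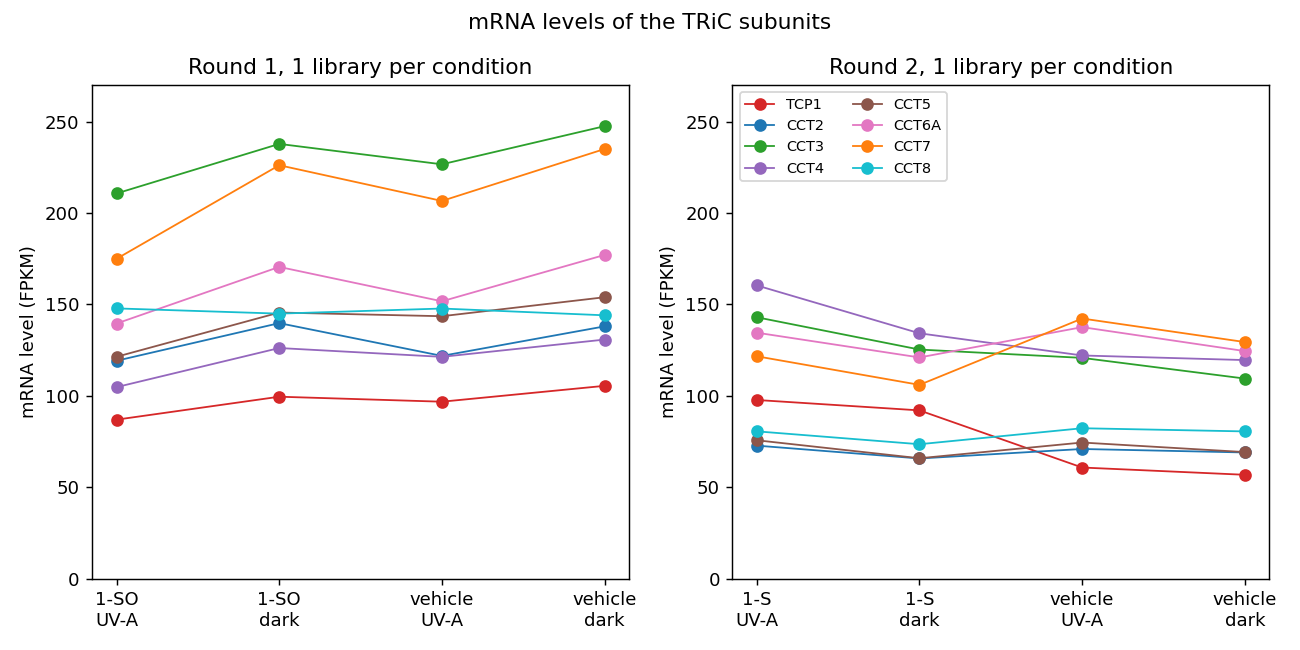
FPKM (y axis, from 0) of each subunit gene in each library of round 1 (left) and round 2 (right), with 1 point per library and lines joining the points of a gene. TCP1 is the lowest in all 4 round 1 libraries, at 86.9 to 105 FPKM, and in both vehicle libraries of round 2, and ranks 5 of 8 in both 1-S libraries.

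Among the subunits, the largest fitted change with 1-S was in TCP1, which encodes the subunit that gave the complex its older name. With 1-S it rose in both light conditions, and it was the 1 subunit gene of 8 that passed the test there. This was below the share of all genes that passed, 27.5% under UV-A and 30.9% in the dark. In round 2 TCP1 had 97.7 FPKM with 1-S under UV-A and 92.0 with 1-S in the dark, against 60.8 in irradiated and 56.8 in dark vehicle cells. Both 1-S libraries lay above both vehicle libraries, and the share of all genes separated this way was not counted. In round 1 it had 86.9 FPKM with 1-SO under UV-A and 99.5 with 1-SO in the dark, against 96.8 in irradiated and 105 in dark vehicle cells. There the irradiated 1-SO library was the lowest of the 4 and the dark vehicle library the highest.

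A single edgeR quasi-likelihood model over the 8 libraries, with Benjamini-Hochberg adjustment over the 12696 genes, was used to test the members. It combines the vehicle libraries of both rounds into 1 light response, has 1 residual degree of freedom, and draws most of its estimate of spread from other genes. Nothing in the labels says that the vehicle rounds were more than separate passages. Each compound library has its own term, so the residual degree of freedom is the difference in vehicle light response between the rounds. The p-values of this model therefore hold no spread between replicates of a compound condition. TCP1 rose with 1-S under UV-A by a log2 fold change of 0.69 ± 0.19 (SE; 95% interval 0.30 to 1.09; edgeR adjusted p = 0.0086). In the dark it rose by 0.58 ± 0.20 (0.17 to 0.98; edgeR adjusted p = 0.027). Such calls were common with 1-S, with 27.5% of all genes called under UV-A and 30.9% in the dark, so that 1 of 8 subunit genes was below the share of all genes. Against the vehicle library of the same round and light alone, the log2 ratios were 0.62 and 0.66. The call in the dark was lost with DESeq2 (log2 0.58, adjusted p = 0.0727) and without the filter on low values (0.49, adjusted p = 0.0762), and the value was 0.35 without the dark vehicle library of round 2. The call under UV-A held in the DESeq2, edgeR and limma alternatives. In the authors' deposited tables, TCP1 with 1-S had a log2 fold change of 0.56 under UV-A and 0.57 in the dark, with an adjusted p of 1 in both.

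TCP1's share of the summed FPKM of the 8 subunits was 11.03% with 1-S under UV-A and 11.7% with 1-S in the dark, against 7.49% in both vehicle libraries of round 2. The snoRNA genes SNORA20 and SNORA29 lie within TCP1, and ACAT2, a thiolase gene on the opposite strand, overlaps its end by 558 bases. The sources used here do not state a strand setting for counting, so reads from the overlap cannot be assigned. ACAT2 fell with 1-S, by a log2 fold change of −0.78 ± 0.22 under UV-A (edgeR adjusted p = 0.0081). In the GENCODE annotation 62 bases lie between the starts of TCP1 and MRPL18. That TCP1 start differs from the RefSeq start used for the promoter window. MRPL18, a mitochondrial ribosomal protein gene, was chosen after its values were seen. It had 63.0 and 56.2 FPKM with 1-S under UV-A and in the dark, against 37.3 and 35.8 in the vehicle cells of round 2. It rose under UV-A (log2 0.79 ± 0.19, edgeR adjusted p = 0.0027) and missed the threshold in the dark (0.50 ± 0.19, edgeR adjusted p = 0.0504).

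**Figure D2:**
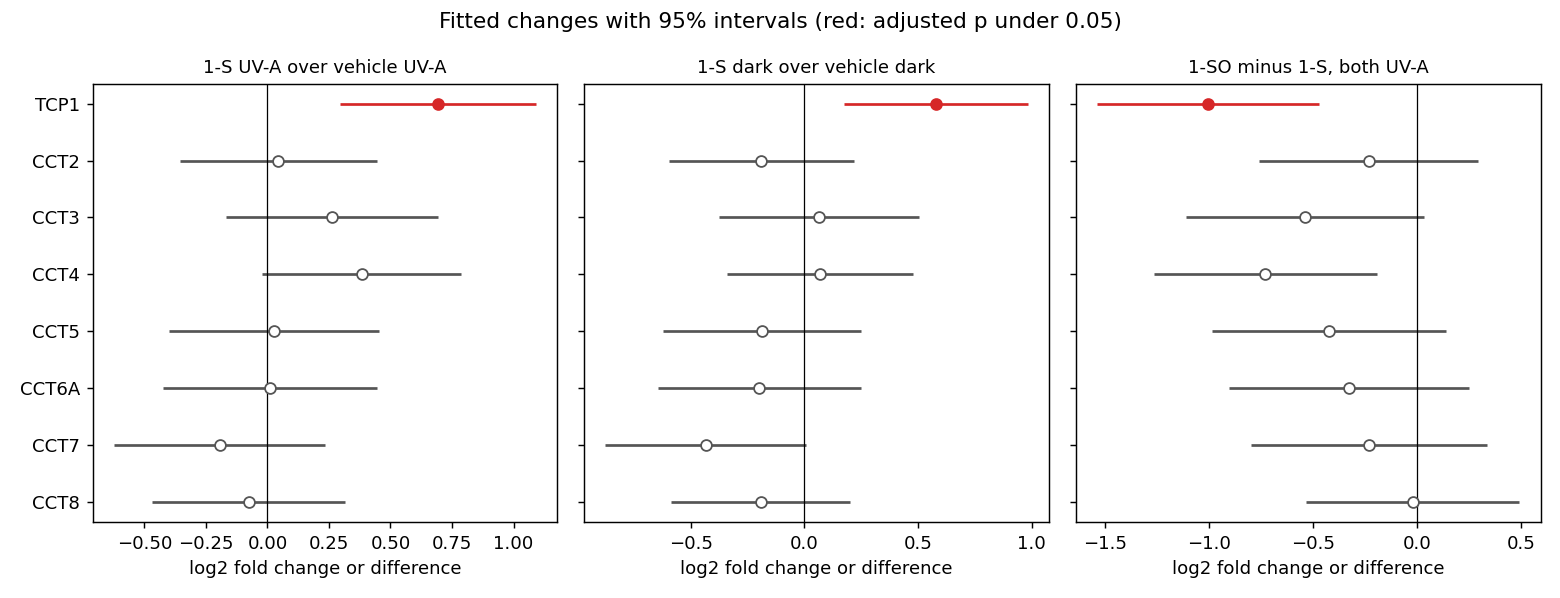
Fitted log2 fold changes of 1-S over vehicle under UV-A (left) and in the dark (middle), and the 1-SO minus 1-S difference under UV-A (right), for each subunit gene, with 95% intervals from edgeR (8 libraries in the model). TCP1 is drawn in red in each panel, at 0.69, 0.58 and −1.01, and the other 7 genes did not pass an adjusted p of 0.05.

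The subunits are known to sit in a fixed ring order, in which TCP1 lies between CCT3 and CCT4. CCT3 had 143 FPKM with 1-S under UV-A and 125 with 1-S in the dark, against 121 in irradiated and 109 in dark vehicle cells. CCT4 had 160.3 and 134 FPKM with 1-S under UV-A and in the dark, against 122 and 119.5 in the vehicle cells. For both genes the 2 libraries with 1-S were the 2 highest of round 2. How many of all genes separated this way was not counted, and a link to the ring order was not tested. Neither passed the test: under UV-A the fitted log2 fold change was 0.38 ± 0.20 for CCT4 (edgeR adjusted p = 0.15) and 0.26 ± 0.21 for CCT3 (edgeR adjusted p = 0.38). In the dark the fitted values were 0.07 for CCT4 and 0.06 for CCT3. By FPKM CCT4 was the most abundant subunit of both 1-S libraries, while CCT7 was the most abundant in both vehicle libraries of round 2. This order depends on gene length. By reads CCT3 stood above CCT4 with 1-S, at 10954 against 8655 under UV-A and 10995 against 8294 in the dark. CCT3 overlaps TSACC and CCT4 overlaps COMMD1 and an antisense transcript, all on the opposite strand, and CCT5 and CCT8 overlap noncoding genes.

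CCT7 read lower in the 1-S libraries. It had 122 FPKM with 1-S under UV-A and 106 with 1-S in the dark, against 142 in irradiated and 129 in dark vehicle cells. Both 1-S values lay below both vehicle values, again with no count of how many of all genes did so. The fitted log2 fold changes were −0.19 ± 0.21 under UV-A and −0.43 ± 0.22 in the dark, neither past the test (edgeR adjusted p = 0.53 and 0.127). Against the vehicle library of the same round and light, the log2 ratios were −0.29 and −0.33.

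The other 4 subunits did not pass the test with 1-S. CCT5, in which mutations cause a hereditary sensory neuropathy, had 75.7 and 65.8 FPKM with 1-S under UV-A and in the dark, against 74.4 and 69.2 in vehicle cells. CCT2 had 72.7 and 65.7 FPKM with 1-S under UV-A and in the dark, against 70.9 and 69.0 in vehicle cells. For these genes the groups overlapped, with the irradiated 1-S library highest and the dark 1-S library lowest of the 4. CCT8 had 80.5 and 73.5 FPKM with 1-S under UV-A and in the dark, against 82.2 and 80.5 in vehicle cells. CCT6A had 134 and 121 FPKM with 1-S under UV-A and in the dark, against 138 and 124 in vehicle cells. For CCT8 and CCT6A the dark 1-S library was the lowest of the round, and the irradiated vehicle library the highest. The 4 fitted log2 fold changes ran from −0.08 to 0.04 under UV-A and from −0.20 to −0.19 in the dark.

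Over the 8 subunits, the median fitted log2 fold change with 1-S was 0.04 under UV-A and −0.19 in the dark, beside a median of 0.00 over all tested genes in both comparisons. The ratios of the members were spread more widely with 1-S, as were those of all genes. The SD between the 8 log2 ratios to the same-round vehicle was 0.29 under UV-A and 0.30 in the dark, against 0.09 and 0.04 for 1-SO, and without TCP1 the 1-S values were 0.20 and 0.17. Over all genes the quartiles of the same ratios were −0.41 and 0.45 with 1-S under UV-A and −0.38 and 0.43 in the dark, against −0.27 and 0.28, and −0.09 and 0.08, with 1-SO. Without the filter on low values, the median under UV-A was −0.02, with 5 of 8 below 0 in place of 2 of 8.

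**Figure D3:**
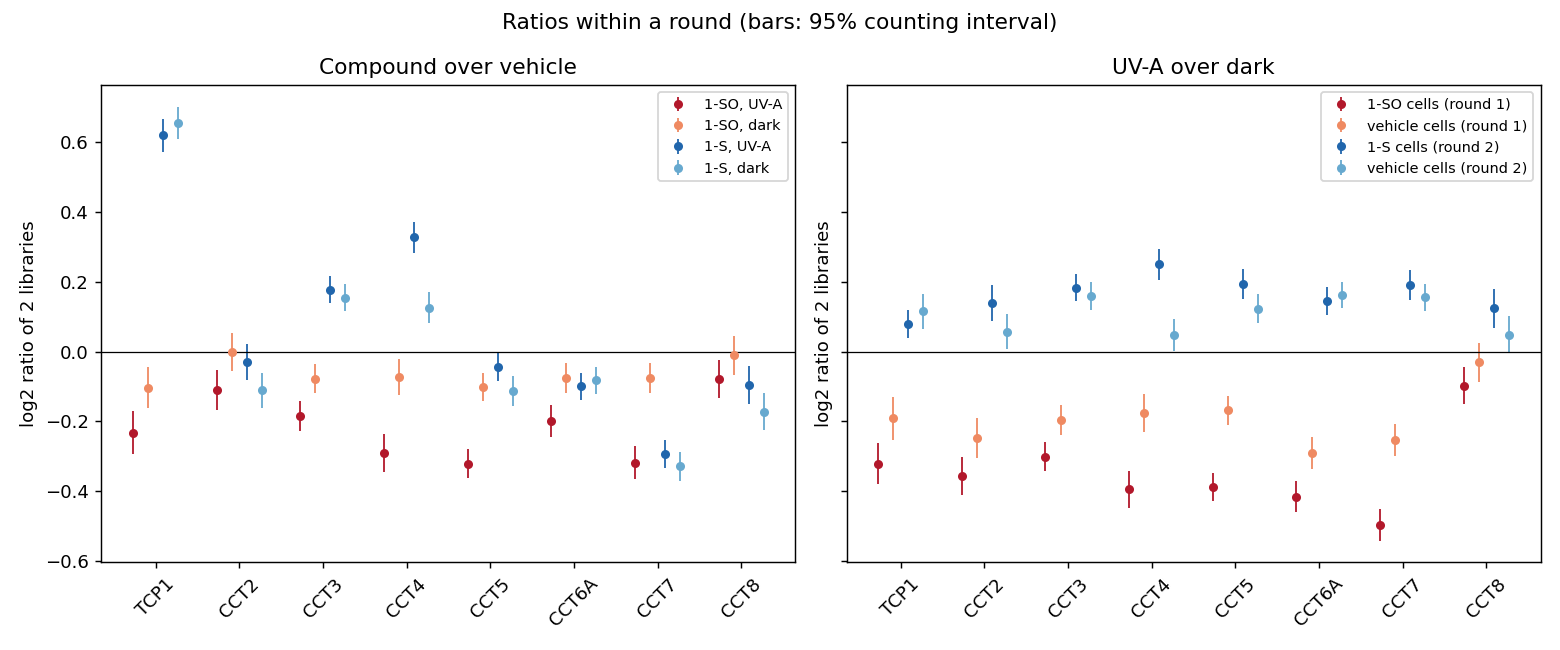
Log2 ratio of 2 libraries of the same round for each subunit gene, compound over vehicle on the left and UV-A over dark on the right, with bars for 95% counting error only. On the left TCP1 with 1-S stands at 0.62 and 0.66, all 8 subunits with irradiated 1-SO are below 0 (CCT8 is above 0 with limma scaling), and on the right the round 1 points lie below 0 and the round 2 points above it.

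With 1-SO and UV-A, 7 of 8 subunits had a lower FPKM than in irradiated vehicle cells, and none passed the test. CCT7 had 175 FPKM with 1-SO under UV-A and 226 with 1-SO in the dark, against 207 in irradiated and 235 in dark vehicle cells of round 1. CCT5 had 121 FPKM with 1-SO under UV-A and 146 with 1-SO in the dark, against 144 in irradiated and 154 in dark vehicle cells. For both genes the irradiated 1-SO library was the lowest of the 4. CCT4 had 105 FPKM with 1-SO under UV-A and 126 with 1-SO in the dark, against 121 in irradiated and 131 in dark vehicle cells. CCT3 had 211 FPKM with 1-SO under UV-A and 238 with 1-SO in the dark, against 227 in irradiated and 247 in dark vehicle cells. These genes too were lowest in the irradiated 1-SO library and highest in the dark vehicle library. CCT6A had 139.5 FPKM with 1-SO under UV-A and 170.5 with 1-SO in the dark, against 152 in irradiated and 177 in dark vehicle cells. CCT2 had 119 FPKM with 1-SO under UV-A and 139.7 with 1-SO in the dark, against 122 in irradiated and 138 in dark vehicle cells. CCT6A and CCT2 were lowest in the irradiated 1-SO library as well. CCT8 was the exception, with 148 FPKM with 1-SO under UV-A and 145 with 1-SO in the dark, against 148 in irradiated and 144 in dark vehicle cells, and its 4 values were nearly level.

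The fitted log2 fold changes of irradiated 1-SO over irradiated vehicle ran from −0.42 (CCT7) to −0.10 (CCT8), with a median of −0.31, and the count of subunits called was 0 of 8. In edgeR 0 of 8 had an unadjusted p under 0.05, against 3198 of the 12696 genes. DESeq2 and limma called 0 of 8 as well. Over all genes 11.5% were called, 567 higher and 894 lower, and the median was 0.01. The split of calls moved to 777 higher and 597 lower with limma on log2(FPKM + 1), where the median of all genes was 0.09, the median of the subunits −0.21, and CCT8 alone lay above 0. The median ratio to the vehicle library of the same round was −0.22. The size of this shift depended on the vehicle libraries. The median of the 8 fitted values was −0.54 without the irradiated vehicle library of round 1, and −0.22 without any 1 of the other vehicle libraries. The irradiated 1-SO library is also the one with 0.93% mitochondrially encoded reads, whose part in the subunit values was not tested.

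In the dark, 1-SO moved no subunit by more than 0.07 in the fitted log2 fold change, with a median of 0.01 over the 8. The edgeR test called 0 of 8, with 0 of 8 at an unadjusted p under 0.05, and DESeq2 and limma called 0 of 8. Over all genes 0% were called, with 26 genes at an unadjusted p under 0.05. The 95% intervals of the 8 subunits all included 0, with a lowest bound of −0.46 and a highest of 0.47. Against the same-round vehicle library all 8 ratios were below 0, with a median of −0.08. Over all genes 52.3% of these ratios were below 0, with quartiles of −0.09 and 0.08.

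The light response of the subunits had opposite signs in the rounds. In vehicle cells the log2 ratio of UV-A over dark was below 0 for all 8 subunits in round 1, from −0.29 (CCT6A) to −0.03 (CCT8), with a median of −0.19. In round 2 it was above 0 for all 8, from 0.05 to 0.16, with a median of 0.12. The median over all genes was 0.00 in both rounds, with 49.9% of genes below 0 in each. The quartiles over all genes were −0.20 and 0.19 in round 1 and −0.13 and 0.11 in round 2. The difference between the rounds was not tested. The fitted light response over both rounds ran from −0.09 to 0.01, and edgeR called 0 of 8 subunits, with 0 of 8 at an unadjusted p under 0.05. The edgeR test called 0% of all genes there, with 348 at an unadjusted p under 0.05, and DESeq2 and limma called 0 of 8 subunits.

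In 1-SO cells the fitted log2 change under UV-A against dark ran from −0.50 (CCT7) to −0.10 (CCT8), with a median of −0.37 and all 8 below 0, or 7 of 8 with limma, where CCT8 lay above 0 and the median of all genes was 0.11. CCT7 was the 1 subunit with an unadjusted p under 0.05 in edgeR (adjusted p = 0.143), beside 3636 of the 12696 genes. After adjustment edgeR called 0 of 8 subunits, against 14.8% of all genes. DESeq2 and limma called 0 of 8. In 1-S cells the change was above 0 for all 8, from 0.08 (TCP1) to 0.25 (CCT4), with a median of 0.16, and edgeR, DESeq2 and limma called 0 of 8. The edgeR test called 0% of all genes in that comparison, with 0 of 8 subunits and 307 genes at an unadjusted p under 0.05. Averaged over the 4 matched pairs of libraries, the subunits ran from −0.10 to 0.01, with 0 of 8 called by edgeR, DESeq2 or limma. In edgeR 0% of all genes were called, and 0 of 8 subunits and 581 genes had an unadjusted p under 0.05. The subunit median was −0.07, and it turned to 0.04 without the 1-SO pair and was −0.16 without the 1-S pair.

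The light response in compound cells was set against that in vehicle cells by an interaction term. With 1-SO the 8 differences ran from −0.45 (CCT7) to −0.11 (CCT8), and edgeR called 0 of 8, against 4.37% of all genes. At an unadjusted p under 0.05 in edgeR there were 0 of 8 subunits and 2155 of the 12696 genes. With 1-S the differences ran from 0.12 to 0.31, and edgeR called 0 of 8 subunits and 0% of all genes. At the same unadjusted threshold there were 0 of 8 subunits and 285 genes. DESeq2 and limma called 0 of 8 in both. The median interaction of the subunits depended on the vehicle libraries. With 1-SO it was −0.31, against −0.13 without either vehicle library of round 2 and −0.45 without either of round 1. With 1-S it was 0.21, against 0.38 and 0.05.

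The compounds were compared as 1 pair at the same dose and time, once under UV-A and once in the dark, each set against vehicle, with p-values adjusted over all genes. They differ by the 5-oxo group, which 1-SO carries and 1-S lacks, and also by round and passage. Under UV-A TCP1 was lower with 1-SO than with 1-S by a log2 difference of −1.01 ± 0.26 (SE; −1.54 to −0.47; edgeR adjusted p = 0.027), and 1 of 8 subunits was called against 3.55% of all genes. With DESeq2 this adjusted p was 0.0604, and with limma on log2(FPKM + 0.1) it was 0.0769. CCT4 had the next largest difference, −0.73 ± 0.26 (−1.26 to −0.19; edgeR adjusted p = 0.137), and the other 6 ran from −0.54 to −0.02. The lowest bound of their 95% intervals was −1.11 and the highest 0.49, so these 6 values do not show that the compounds acted alike on these genes. In the dark TCP1 differed by −0.61 ± 0.26 (−1.14 to −0.07; edgeR adjusted p = 0.107). There edgeR called 0 of 8 subunits against 17.2% of all genes, and DESeq2 and limma called 0 of 8. At an unadjusted p under 0.05 in edgeR there were 1 of 8 subunits and 3981 of the 12696 genes. The other 7 ran from −0.09 to 0.46 in the dark, with intervals from −0.63 to 1.02. The difference between the compounds in the light response itself was a comparison added after seeing the data. It ran from −0.69 (CCT7) to −0.22 (CCT8), with 0 of 8 called by edgeR, DESeq2 or limma. In edgeR 4.36% of all genes were called. There 2 of 8 subunits and 2440 of the 12696 genes had an unadjusted p under 0.05.

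Most other cytosolic heat shock chaperone genes rose with 1-S. Of 12 genes of the HSP70 and HSP90 machinery, 11 rose under UV-A and 10 in the dark, with medians of 1.72 and 1.66 on the log2 scale. Of all 12696 genes, 1746 were called higher under UV-A and 2024 in the dark. In either direction the shares called were 27.5% and 30.9%. The smallest values were those of HSF1, the heat shock transcription factor, at 0.06 and 0.10, and of HSPA4, an HSP110-type chaperone, at 0.59 and 0.52, which lay below those of TCP1. HSPA1A, an inducible HSP70, had 801 and 810.1 FPKM with 1-S under UV-A and in the dark, against 8.41 and 8.39 in vehicle cells. DNAJB1, an HSP40 partner of HSP70, had 2799 and 2646 FPKM with 1-S under UV-A and in the dark, against 98.0 and 88.9 in vehicle cells. Each of the libraries with 1-S lay far above the vehicle libraries of round 2. HSPA1B and BAG3, an HSP70 nucleotide exchange factor, rose by 5.82 and 2.74 under UV-A. HSPA1A and HSPA1B are near-identical, so reads may have been split between them. With irradiated 1-SO 0 of the 12 passed the test in edgeR, with a median of −0.36.

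Calls in the smaller lists are to be read beside the same shares of all genes called with 1-S in either direction, 27.5% under UV-A and 30.9% in the dark. Of 5 tested related chaperonin genes, 3 rose and 1 fell with 1-S in both light conditions. HSPD1, the mitochondrial HSP60, had 281 and 258 FPKM with 1-S under UV-A and in the dark, against 121 and 111 in vehicle cells. HSPE1, its co-chaperonin, rose by 2.13 under UV-A, on few reads, and BBS12 by 1.00, while BBS10 fell by 0.92. With irradiated 1-SO none of the 5 passed the edgeR test. Of 6 prefoldin genes, 1 was called under UV-A and 2 in the dark: PFDN2 rose with 1-S in both conditions, by 0.85 under UV-A and 0.57 in the dark, and VBP1 fell in the dark by 0.56. PFDN4 and PFDN1 did not pass, at 0.21 and −0.30 under UV-A. None of the 6 passed with irradiated 1-SO in edgeR. Of 3 tested phosducin-like genes, regulators of TRiC folding, none passed with 1-S. PDCL3 fell under UV-A in 1-SO cells by 0.79 (edgeR adjusted p = 0.0281), and TXNDC9 and PDCL did not pass there, at 0.03 and −0.27.

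**Figure D4:**
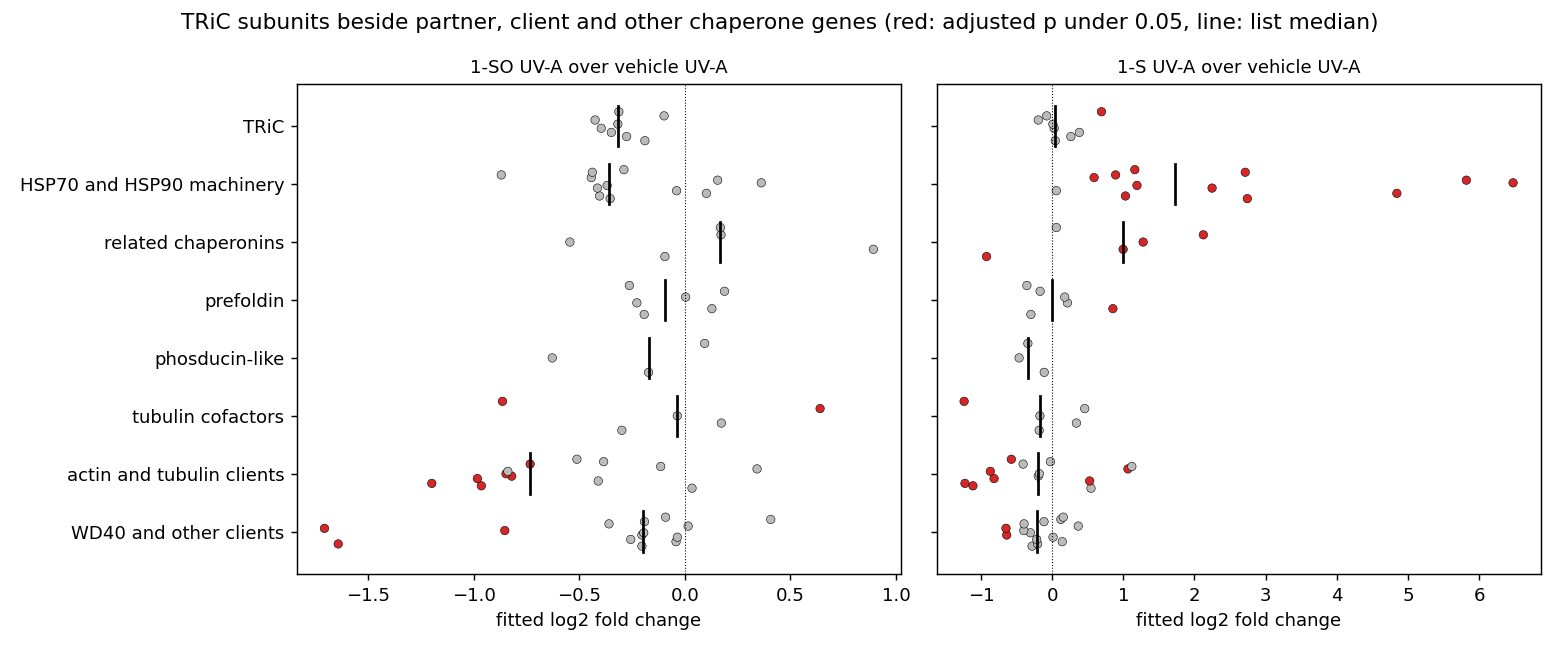
Fitted log2 fold change (x axis, scales differ between panels) of irradiated 1-SO over irradiated vehicle on the left and irradiated 1-S over irradiated vehicle on the right, for the TRiC subunits and the other gene lists. Points are genes, red where the edgeR adjusted p was under 0.05, and black lines are list medians, which for TRiC are −0.31 and 0.04 and for the HSP70 and HSP90 machinery −0.36 and 1.72.

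Genes of TRiC's clients were called in both directions. The share of all genes called in either direction was 11.5% with irradiated 1-SO and 27.5% with irradiated 1-S. Of the 12696 genes, 894 were called lower and 567 higher with irradiated 1-SO, and 1741 lower and 1746 higher with irradiated 1-S. Of 13 tested actin and tubulin genes, 6 fell and 0 rose with irradiated 1-SO, with a median of −0.73. With irradiated 1-S 5 fell and 2 rose, with a median of −0.19. ACTG1, cytoplasmic gamma actin, had 435 FPKM with 1-SO under UV-A and 1083 with 1-SO in the dark, against 836 in irradiated and 1153 in dark vehicle cells, and with irradiated 1-S it fell by 1.23 on the log2 scale. TUBA1B fell by 0.98 with irradiated 1-SO and by 0.82 with irradiated 1-S. TUBA1C fell by 0.82 with irradiated 1-SO and did not pass with irradiated 1-S, at −0.19. TUBB2A rose with 1-S, by 1.07 under UV-A. Of 14 genes for WD40 and other clients, 3 fell with irradiated 1-SO. CDC20, which acts in mitosis, fell by 1.64, the mitotic kinase gene PLK1 fell by 1.71, and MLST8, an mTOR subunit, fell by 0.85. GNB4 did not pass with irradiated 1-SO, at −0.20. With irradiated 1-S 2 of the 14 fell and 0 rose, PLK1 at −0.65 and GNB4 at −0.64. CDC20 and MLST8 did not pass with irradiated 1-S, at −0.20 and −0.40. Of 5 tubulin cofactors, TBCD fell by 0.86 with irradiated 1-SO and by 1.24 with irradiated 1-S. TBCC rose by 0.64 with irradiated 1-SO, and ARL2 and TBCA did not pass, at −0.30 and 0.17. The medians over all genes in these comparisons were 0.01 with 1-SO and 0.00 with 1-S.

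Across the 8 libraries, each subunit was compared with the mean of the other 7 on log2(FPKM + 1) centred within its round. Pearson's r was 0.89 for CCT3, 0.87 for CCT4, 0.84 for CCT5, 0.81 for CCT6A and 0.78 for CCT2. It was 0.37 for CCT7, 0.34 for TCP1 and −0.09 for CCT8, so these 3 followed the rest least. The protein-coding genes with a pattern most like the mean of the 8, among 11248 genes, were PRICKLE1, SORD, ACYP2, PDCD2 and PISD, with r from 0.965 to 0.951. PRICKLE1 had 1.42 to 2.05 FPKM, near the filter of 1 FPKM, and ACYP2 had 2.62 to 9.01 FPKM. The correlations are descriptions over 8 libraries that share rounds, with no test.

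Reads in pseudogene and paralog rows were few. The 15 such rows of a round held 123 to 266 reads per library in all. CCT6A also hosts SNORA22B and SNORA15, and CCT6P1, a CCT6A pseudogene, had 0.651 to 1.70% of the CCT6A count. The authors' deposited tables give an adjusted p of 1 for all 8 subunits in each of their comparisons.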

How the data were processed

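RNA was measured in 8 libraries in 6 groups. Counts per gene were deposited by the authors as whole numbers, 1 column per library per the file headers, and the deposited FPKM values are those counts per gene length and library total. The authors' deposited comparison tables give log2 fold changes and p-values. Per the submitters' processing notes the tools included HTSeq 0.6.1, STAR 2.5, edgeR 3.16.5, DESeq2, TopHat and STAR-Fusion, with no role stated for each.

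Genes with FPKM of at least 1 in at least 2 libraries were tested with edgeR 4.0.16 in R 4.3.3 (TMM within a round, round as a block, tested on simulated data) at an adjusted p of 0.05. DESeq2 1.42.0 and limma 3.58.1 were alternatives. The vehicle libraries of a number share a round per the labels, which pairs them. Their light responses correlated at r = −0.101 over genes between rounds. Intervals cover counting error only where said so. All 8 members are named, and up to 4 genes per other list by smallest p. Members and lists were chosen with earlier results of these data known.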

Additional observations from a re-analysis of the deposited data

Results flagged for a closer look

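TCP1 differed between the compounds under UV-A, by a log2 difference of −1.01 for 1-SO minus 1-S in the edgeR test of the difference itself. Each compound was 1 library in its own round and passage, so compound and round cannot be told apart.

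All 8 subunits had a vehicle UV-A over dark ratio below 0 in round 1 and above 0 in round 2. This difference between rounds was not tested, and its part in the fitted values was not tested beyond leaving out a vehicle library in turn.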

How the results depend on the processing

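TCP1 kept its direction in each of its called comparisons under every alternative run. Some subunit medians, which were not themselves tested, changed sign. The median for irradiated 1-S over vehicle, where TCP1 was called, was −0.02 without the filter on low values, against 0.04 with it. Other changes of sign came from leaving out libraries or from using the vehicle library of the same round alone. The count of subunits called was 0 in place of 1 for 1-S in the dark with DESeq2 and without the filter on low values, and for 1-SO against 1-S under UV-A with DESeq2 and with limma on log2(FPKM + 0.1); the cause was not tested. Genes called with DESeq2 numbered 489 for 1-SO against vehicle under UV-A, 594 for UV-A in 1-SO cells, 1476 and 1587 for 1-S against vehicle, irradiated and dark, 156 for the 1-SO interaction, 134 and 651 for 1-SO against 1-S, irradiated and dark, and 116 for the light difference between compounds. With limma on log2(FPKM + 0.1) they numbered 890 for irradiated 1-SO, 210 for its interaction, 196 and 1396 for 1-SO against 1-S, irradiated and dark, and 122 for the light difference. In comparisons with 0 calls, the count without the filter was 23 for UV-A in vehicle cells, 3 for UV-A in 1-S cells, 3 for the 1-S interaction and 280 for the averaged light response. Limma on log2(FPKM + 1) gave 7 for UV-A in vehicle cells, 2 for 1-SO in the dark and 6 for the 1-S interaction, and log2(FPKM + 0.1) gave 3, 1 and 4 for these and 2 for UV-A in 1-S cells. Without the replicate block (round), 0 subunits and 0 genes were called for UV-A in vehicle cells and for the averaged response. Leaving out each vehicle library moved the TCP1 value to 0.62 to 0.93 for 1-S under UV-A, 0.35 to 0.66 in the dark and −1.16 to −0.85 for 1-SO against 1-S under UV-A. The median subunit value then ran from −0.54 to −0.22 for 1-SO under UV-A, −0.08 to 0.24 for 1-SO in the dark, −0.04 to 0.31 for 1-S under UV-A, −0.33 to −0.10 for 1-S in the dark, −0.56 to −0.19 for 1-SO against 1-S under UV-A, 0.01 to 0.27 for the same in the dark, −0.45 to −0.13 for the 1-SO interaction, 0.05 to 0.38 for the 1-S interaction and −0.19 to 0.12 for UV-A in vehicle cells. Leaving out each matched pair gave 0 subunits and 0 genes called for the averaged light response, while its subunit median ran from −0.16 to 0.04 and so changed sign. Fits without a vehicle library have no residual degree of freedom and give values only.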
